A study of Homo sapiens with 9 samples.

Results

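PaTu 8988t cells, an established human line from a metastasis of a pancreatic adenocarcinoma, were sequenced after contact with extracellular matrix that contained either wild-type CPXM2 or the CPXM2 mutant R213A. The comparison takes the 3 libraries labelled CPXM2WT OE ECM (wild type 1 to 3) against the 3 labelled CPXM2R213A OE ECM (R213A 1 to 3), 6 of the 9 libraries of the series. The remaining 3 libraries, control 1 to 3, came from cells on control matrix (Ctrl ECM) and are given beside the values. All 9 share the cell line, the DMEM medium with serum and the TRIzol extraction. The study's title sets the comparison in the frame of collagen aligned by CPXM2, and the sources used here do not say which cells made the matrix, how long the tumour cells met it or whether libraries of a group came from separate cultures. Expression was deposited as FPKM, fragments scaled to gene length and library size, in 2 tables. The 4-library table holds wild type 1, R213A 1, R213A 3 and control 1. The 5-library table holds wild type 2, wild type 3, R213A 2, control 2 and control 3. Of 58735 genes in each table, the 11193 with a mean of at least 1 FPKM over the 9 libraries were compared. Wild type minus R213A was formed within each table on the log2(FPKM + 1) scale and then averaged over both tables.

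CPXM2 is a secreted member of the M14 metallocarboxypeptidase family that carries a discoidin domain, a fold through which other proteins bind collagen, and a peptidase domain held to be inactive as an enzyme. Fibrillar collagen is sensed by tumour cells through integrins that share the ITGB1 chain and through the discoidin receptor kinases. From there signals pass to focal adhesions, to actin and its transcription factor SRF, to the coactivators YAP and TAZ, and to ERK and AP-1. The same cells answer nutrient or protein folding stress through the factor ATF4 and through chaperones of the endoplasmic reticulum. R213A replaces an arginine by alanine.

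The mutated codon is shown first, since it is the only designed difference between the groups. In the reference transcript CPXM2-201 the codon at the position of R213A is AGG, which encodes arginine as the label says. It lies in exon 4 of CPXM2 on the minus strand (hg38 chr10:123842363-123842365). The 44 coding bases from chr10:123842349-123842392 are printed 5′ to 3′ with that codon in capitals. Whether the CPXM2 in the matrix was built from the human sequence is not given in the sources used here.
CPXM2 exon 4: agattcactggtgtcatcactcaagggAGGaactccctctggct

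Promoters of members of 5 gene lists that stood apart in the 4-library table follow, to show the motif each list is known for. They were taken from RefSeq (GRCh38.p14), the 250 bases before the annotated start, printed 5′ to 3′ on the gene's strand, with matches of either strand to the motif named for that gene in capitals. For the cell cycle the motifs are the CHR element TTTGAA, bound by repressors of mitotic genes, and the CCAAT box of NF-Y. CCNB2 (chr15:59104896-59105145, plus strand), a cyclin of mitosis, holds 4 CCAAT boxes and 1 CHR match. PLK1 (chr16:23678639-23678888, plus strand), a mitotic kinase, holds 1 of each. MCM6 (chr2:135876444-135876693, minus strand), a subunit of the replicative helicase, holds 4 overlapping matches to the E2F motif TTTNNCGC in 2 clusters.
CCNB2: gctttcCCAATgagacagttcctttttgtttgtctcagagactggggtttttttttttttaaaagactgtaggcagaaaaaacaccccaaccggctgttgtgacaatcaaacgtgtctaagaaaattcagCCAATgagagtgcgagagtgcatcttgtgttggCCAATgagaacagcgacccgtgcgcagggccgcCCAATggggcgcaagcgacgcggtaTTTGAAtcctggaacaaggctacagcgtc
PLK1: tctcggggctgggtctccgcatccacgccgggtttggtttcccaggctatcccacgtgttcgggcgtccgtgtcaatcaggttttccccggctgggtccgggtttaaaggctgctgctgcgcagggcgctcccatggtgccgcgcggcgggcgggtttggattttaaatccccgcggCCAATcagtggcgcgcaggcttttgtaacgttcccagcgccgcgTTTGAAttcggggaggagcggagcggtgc
MCM6: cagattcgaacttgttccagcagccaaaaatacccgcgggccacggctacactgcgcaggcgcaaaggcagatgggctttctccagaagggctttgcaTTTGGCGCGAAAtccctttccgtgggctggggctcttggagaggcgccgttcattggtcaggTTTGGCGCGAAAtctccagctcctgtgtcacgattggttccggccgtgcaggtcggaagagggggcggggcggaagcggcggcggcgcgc
For the stress lists, CHAC1 (chr15:40953221-40953470, plus strand), which degrades glutathione, holds 1 match to the ATF4 element TGATGNAA on the opposite strand. HSPA5 (chr9:125241344-125241593, minus strand), the main chaperone of the endoplasmic reticulum, holds 1 exact match to the endoplasmic reticulum stress element (ERSE), which is CCAAT, a gap of 9 bases of any kind and CCACG. ANKRD1 (chr10:90921088-90921337, minus strand), a target of YAP and TAZ, holds 2 matches to the TEAD motif GGAATG.
CHAC1: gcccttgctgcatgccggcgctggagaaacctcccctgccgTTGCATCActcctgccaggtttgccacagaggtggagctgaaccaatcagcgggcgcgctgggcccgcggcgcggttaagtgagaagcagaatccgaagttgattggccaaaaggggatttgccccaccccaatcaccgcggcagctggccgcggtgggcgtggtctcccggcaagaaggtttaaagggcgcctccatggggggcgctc
HSPA5: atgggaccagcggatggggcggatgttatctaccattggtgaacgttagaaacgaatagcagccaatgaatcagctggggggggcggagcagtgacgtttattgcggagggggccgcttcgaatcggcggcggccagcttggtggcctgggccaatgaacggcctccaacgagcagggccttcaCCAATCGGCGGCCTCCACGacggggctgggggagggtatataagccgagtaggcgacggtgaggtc
ANKRD1: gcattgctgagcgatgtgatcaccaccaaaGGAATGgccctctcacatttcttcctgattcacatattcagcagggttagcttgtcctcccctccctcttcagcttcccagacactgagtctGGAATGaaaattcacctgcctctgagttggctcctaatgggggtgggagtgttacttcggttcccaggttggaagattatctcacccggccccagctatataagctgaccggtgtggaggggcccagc

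The motifs were counted on both strands in the RefSeq windows of 250 bases before to 50 after each start. CHR was found in 24 of 40 windows of the G2/M list (60%) against 15.16% of all 35116 windows, and CCAAT in 30 of 40 (75%) against 34.61%. CCAAT was also found in 28 of 32 windows of the endoplasmic reticulum list (87.5%), 28 of 44 of the S phase list (63.64%) and 20 of 41 of the ATF4 list (48.78%). The E2F motif was found in 23 of 44 windows of the S phase list (52.27%) against 6.886%. The ATF4 element was found in 7 of 41 windows of the ATF4 list (17.07%) against 3.617%, and ERSE, which overlaps a CCAAT match, in 10 of 32 windows of the endoplasmic reticulum list (31.25%) against 0.07689%. The TEAD motif was found in 8 of 16 windows of the YAP and TAZ list (50%) against 14.03%. A match is a run of letters and not evidence of binding in these cells.

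The libraries of the 2 tables differed in how far wild type and R213A lay apart. In the 4-library table wild type 1 differed at least 2-fold from R213A 1 in 1398 genes and from R213A 3 in 553, and R213A 1 and 3 differed from each other in 499. In the 5-library table wild type 2 and 3 differed from R213A 2 in 41 and 56 genes, and from each other in 46. Read counts of wild type 2 and R213A 2 were closer than those of wild type 2 and 3, with a mean chi-square per gene of 2.88 against 5.79. R213A 3 differed from control 1 in 387 genes, while wild type 1 and R213A 1 differed from it in 1862 and 2316. Libraries of the same group lay further apart across the tables. Wild type 1 differed at least 2-fold from wild type 2 and 3 in 3818 and 3549 genes. R213A 1 and 3 differed from R213A 2 in 5302 and 3323. Recovered totals ran from 15951927 reads in R213A 1 to 18312806 in wild type 3, and EEF1A1 was the most abundant gene in every library. Of 18 fibroblast, 15 immune and 9 fat cell markers, 0 reached a mean of 1 FPKM, and 2 of 12 endothelial and 1 of 7 kidney markers did. The epithelial keratins KRT8 and KRT18 were abundant (104 to 300.3 and 211 to 647 FPKM), and the junction gene CDH1 and KRT19 were near 0. CPXM2 transcripts could not check the labels, which concern the matrix and not the cells sequenced, with 0 reads in 8 libraries and 0.0112 FPKM in R213A 3.

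**Figure D1:**
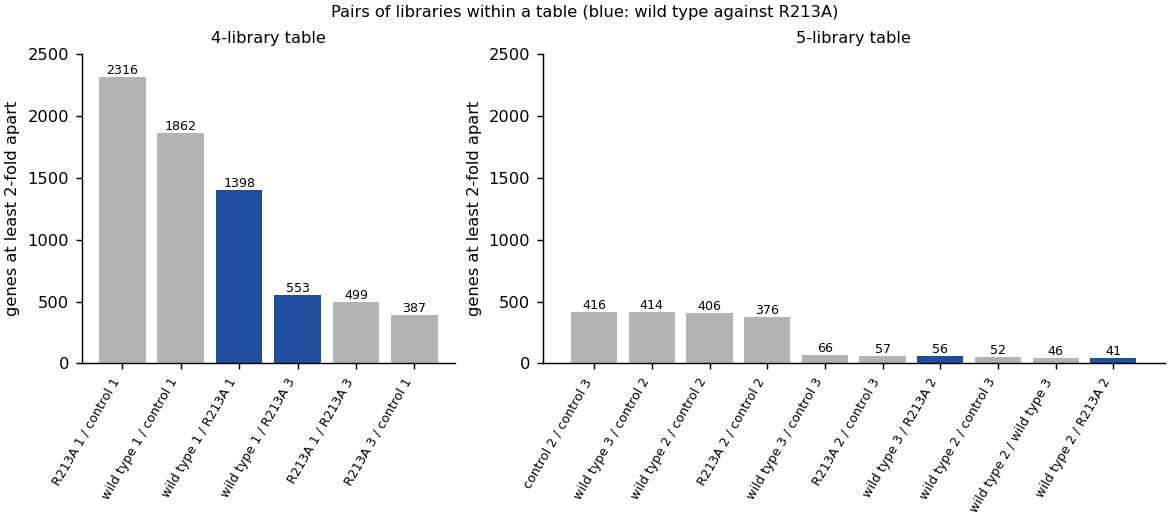
Genes at least 2-fold apart on the log2(FPKM + 1) scale for each pair of libraries within a table, with wild type against R213A in blue and other pairs in grey. Wild type 1 stands 1398 and 553 genes from R213A 1 and 3, whereas wild type 2 and 3 stand 41 and 56 genes from R213A 2, about as far as from each other (46).

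No gene differed between wild type and R213A beyond the spread within and between tables when both were pooled. limma called 0 of 11193 genes after Benjamini-Hochberg adjustment (0.0%), with a smallest adjusted p of 0.869. At an unadjusted p under 0.05 there were 144 genes higher (1.29%) and 121 lower (1.08%) on wild type, 2.37% in all. limma-voom on the recovered reads also called 0, with 313 at an unadjusted p under 0.05. The median 95% interval of a gene's difference reached 0.42 to either side, a 1.34-fold change. The pooled fit gives both tables a common difference, so its p-values also count disagreement between the tables as spread. Separate cultures are not stated, so the part that is spread between libraries of a group may be technical. The 4-library differences had an SD of 0.54 across genes and the 5-library differences 0.16, against 0.49 between R213A 1 and 3 and 0.19 between wild type 2 and 3. Their correlation across genes was -0.06, and 45.6% of genes had the same direction in both tables. limma's test of the difference between the tables called 0 genes with 6 libraries (0.0%; smallest adjusted p 0.143; 1035 at an unadjusted p under 0.05, 9.25%) and 0 with 9 (0.0%; smallest adjusted p 0.198; 812, 7.25%). Each table was scaled on its own, and each 4-library difference rests on the single library wild type 1. The accounts below therefore give both tables side by side, and the 5-library values are what the data give without wild type 1. A library is called highest or lowest within its own table.

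**Figure D2:**
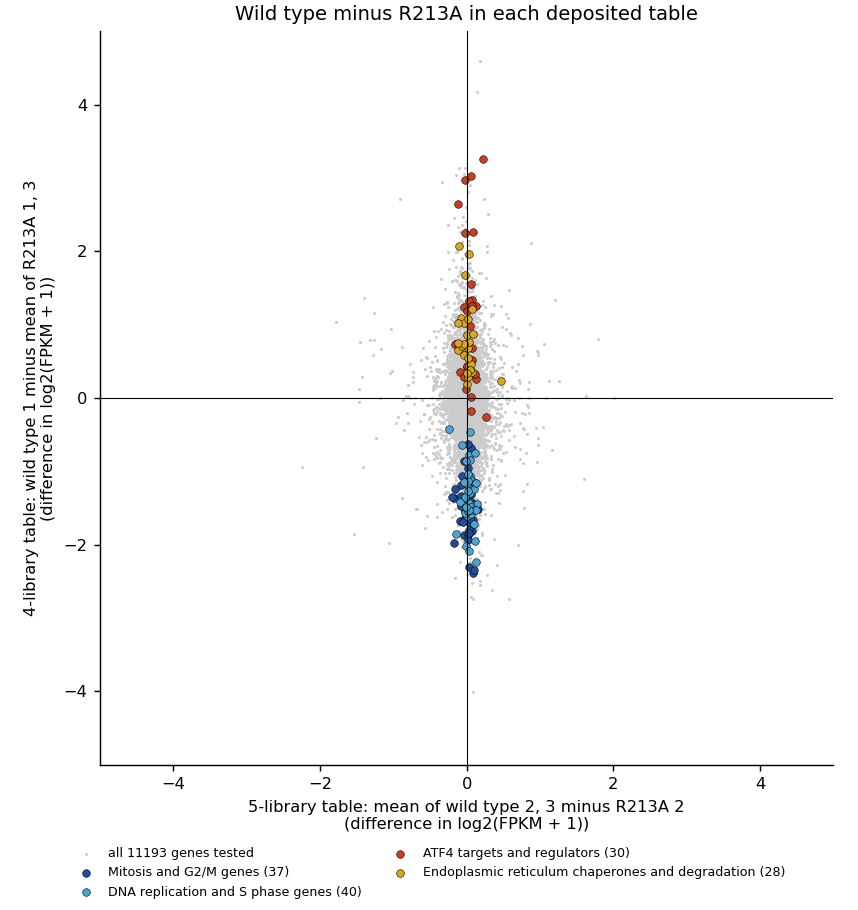
Wild type minus R213A for each of 11193 genes, with the 5-library table on the horizontal and the 4-library table on the vertical axis, both as differences in log2(FPKM + 1) at the same scale; 4 gene lists are coloured. The cell cycle lists lie below and the 2 stress lists mostly above 0 on the vertical axis, and all 4 lie close to 0 on the horizontal axis.

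Genes of mitosis stood lower in wild type 1 than in both R213A libraries of its table, without exception. MKI67, a marker of proliferation, was at 4.06 FPKM in wild type 1, against 21.4 and 16.6 in R213A 1 and 3 and 31.6 in control 1. CENPF, a kinetochore protein gene, was at 3.11 FPKM in wild type 1, against 9.06 and 9.92 in R213A 1 and 3 and 18.4 in control 1. BUB1, a kinase of the spindle checkpoint, was at 3.53 FPKM in wild type 1, against 9.87 and 11.6 in R213A 1 and 3 and 20.7 in control 1. For these 3 genes wild type 1 was lowest and control 1 highest, with R213A 1 and 3 between them. The other table gave another picture. MKI67 was at 12.4 and 9.11 FPKM in wild type 2 and 3, 12.2 in R213A 2 and 10.3 and 11.6 in control 2 and 3. CENPF was at 8.83 and 7.02 FPKM in wild type 2 and 3, 9.24 in R213A 2 and 8.51 and 9.07 in control 2 and 3. BUB1 was at 10.3 and 10.01 FPKM in wild type 2 and 3, 11.6 in R213A 2 and 11.95 and 11.2 in control 2 and 3. There wild type and R213A overlapped for MKI67, and wild type 2 and 3 were both somewhat below R213A 2 for CENPF and BUB1. Wild type 2 minus 3 was 0.29 for CENPF and 0.04 for BUB1. Over both tables MKI67 differed by -1.08 ± 0.39 (-1.97 and -0.18 in the 4- and 5-library tables). CENPF differed by -0.78 ± 0.27 (-1.35 and -0.21) and BUB1 by -0.77 ± 0.27 (-1.37 and -0.17; SE, limma adjusted p 0.869 for each of the 3). In bulk libraries fewer cycling cells and less of these transcripts per cell cannot be told apart.

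Of 38 listed G2/M genes 37 were measured, and 37 of these lay below both R213A libraries in the 4-library table, where 4216 of all genes (37.7%) did so. The 4-library differences ran from -2.38 to -0.63, and 33 members were at least 2-fold lower (4.07% of all genes). The median was -1.54, against -0.03 over all genes tested, and it was -1.56 against R213A 1 and -1.53 against R213A 3. In the 5-library table the median was 0.02, with 13 members above and 9 below R213A 2 without overlap (35.2% and 29.9% of all genes). AURKB, the kinase of the chromosomal passenger complex, and its partner BIRC5 had the widest 4-library differences of the list (-2.38 and -2.35). AURKB was at 18.8 FPKM in wild type 1, against 144 and 72.2 in R213A 1 and 3 and 65.2 in control 1. BIRC5 was at 12.5 FPKM in wild type 1, against 100.02 and 45.6 in R213A 1 and 3 and 54.3 in control 1. Here R213A 1 stood above R213A 3 by 0.98 and 1.12, and control 1 lay near R213A 3. AURKB was at 20.7 and 20.1 FPKM in wild type 2 and 3 and at 19.1 in R213A 2. BIRC5 was at 12.3 and 13.2 FPKM in wild type 2 and 3 and at 11.9 in R213A 2. Wild type 2 and 3 were thus slightly above R213A 2 for both (0.09 and 0.09). CCNB2, whose promoter is printed above, was at 10.5 FPKM in wild type 1, against 38.2 and 32.3 in R213A 1 and 3 and 35.4 in control 1. PLK1 was at 12.5 FPKM in wild type 1, against 53.3 and 44.2 in R213A 1 and 3 and 48.8 in control 1. Both again had wild type 1 lowest, with control 1 between the R213A libraries. CCNB2 was at 19.8 and 19.9 FPKM in wild type 2 and 3 and at 18.9 in R213A 2. PLK1 was at 11.5 and 10.9 FPKM in wild type 2 and 3 and at 11.1 in R213A 2, so R213A 2 lay between wild type 2 and 3 for PLK1 and below them for CCNB2. In the pooled fit 9 of the 37 members had an unadjusted p under 0.05 (2.37% of all genes, either direction) and 0 an adjusted one.

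DNA replication genes stood lower in wild type 1 in the same way. CDC45, a subunit of the active replicative helicase, was at 9.01 FPKM in wild type 1, against 28.8 and 23.0 in R213A 1 and 3 and 16.2 in control 1. GINS2, a subunit of the same complex, was at 8.24 FPKM in wild type 1, against 42.4 and 24.9 in R213A 1 and 3 and 20.9 in control 1. MCM6, of its motor ring and with its promoter printed above, was at 11.03 FPKM in wild type 1, against 24.6 and 24.9 in R213A 1 and 3 and 30.0 in control 1. Within this table wild type 1 was the lowest library for all 3, and R213A 1 was the highest for CDC45 and GINS2. CDC45 was at 7.44 and 7.85 FPKM in wild type 2 and 3 and at 8.202 in R213A 2. GINS2 was at 5.70 and 4.77 FPKM in wild type 2 and 3 and at 5.89 in R213A 2. MCM6 was at 13.5 and 14.3 FPKM in wild type 2 and 3 and at 13.5 in R213A 2. Here the groups were close, with R213A 2 the highest for CDC45 and GINS2 by a small margin. Over both tables CDC45 differed by -0.75 ± 0.30 and GINS2 by -1.003 ± 0.40 (SE, limma adjusted p 0.869 each). All 40 listed S phase genes were measured, and 40 lay below both R213A libraries in the 4-library table (37.7% of all genes). Of these 33 were at least 2-fold lower (4.07% of all genes). The differences ran from -2.23 to -0.43 with a median of -1.32 (-1.39 against R213A 1 and -1.26 against R213A 3). GINS3, with the smallest 4-library difference, was at 2.69 FPKM in wild type 1 and at 3.75 and 4.16 in R213A 1 and 3 (-0.43). It was also the lowest member in the other table, at 2.31 and 2.65 FPKM in wild type 2 and 3 and at 3.09 in R213A 2 (-0.24). The 5-library median of the list was 0.03, with 20 members above R213A 2 and 5 below it without overlap (35.2% and 29.9% of all genes).

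The G1 list, which holds cyclins, inhibitors of cyclin-dependent kinases and targets of p53, had members far apart in both directions in the 4-library table. GDF15, a secreted stress cytokine, was at 56.4 FPKM in wild type 1, against 1.66 and 2.79 in R213A 1 and 3 and 0.869 in control 1. CDKN1A, the kinase inhibitor p21, was at 75.7 FPKM in wild type 1, against 11.04 and 19.1 in R213A 1 and 3 and 6.64 in control 1. CCND1, the G1 cyclin that growth factors induce, was at 15.9 FPKM in wild type 1, against 38.2 and 32.7 in R213A 1 and 3 and 40.3 in control 1. GDF15 and CDKN1A were thus far above (4.18 and 2.30) and CCND1 was below both R213A libraries (-1.10). GDF15 was at 1.05 and 1.09 FPKM in wild type 2 and 3 and at 0.877 in R213A 2. CDKN1A was at 42.4 and 46.4 FPKM in wild type 2 and 3 and at 45.2 in R213A 2. CCND1 was at 35.7 and 34.3 FPKM in wild type 2 and 3 and at 36.0 in R213A 2. Without wild type 1, then, CDKN1A overlapped, and the differences of GDF15 and CCND1 were 0.14 and -0.04. Over both tables GDF15 differed by 2.16 ± 0.80 (SE, 95% interval 0.26 to 4.05, limma adjusted p 0.869). Of 27 measured members 10 lay above and 11 below R213A without overlap, near the shares of all genes (33.0% and 37.7%). The 4-library median was 0.08, but -0.17 against R213A 3 alone.

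**Figure D3:**
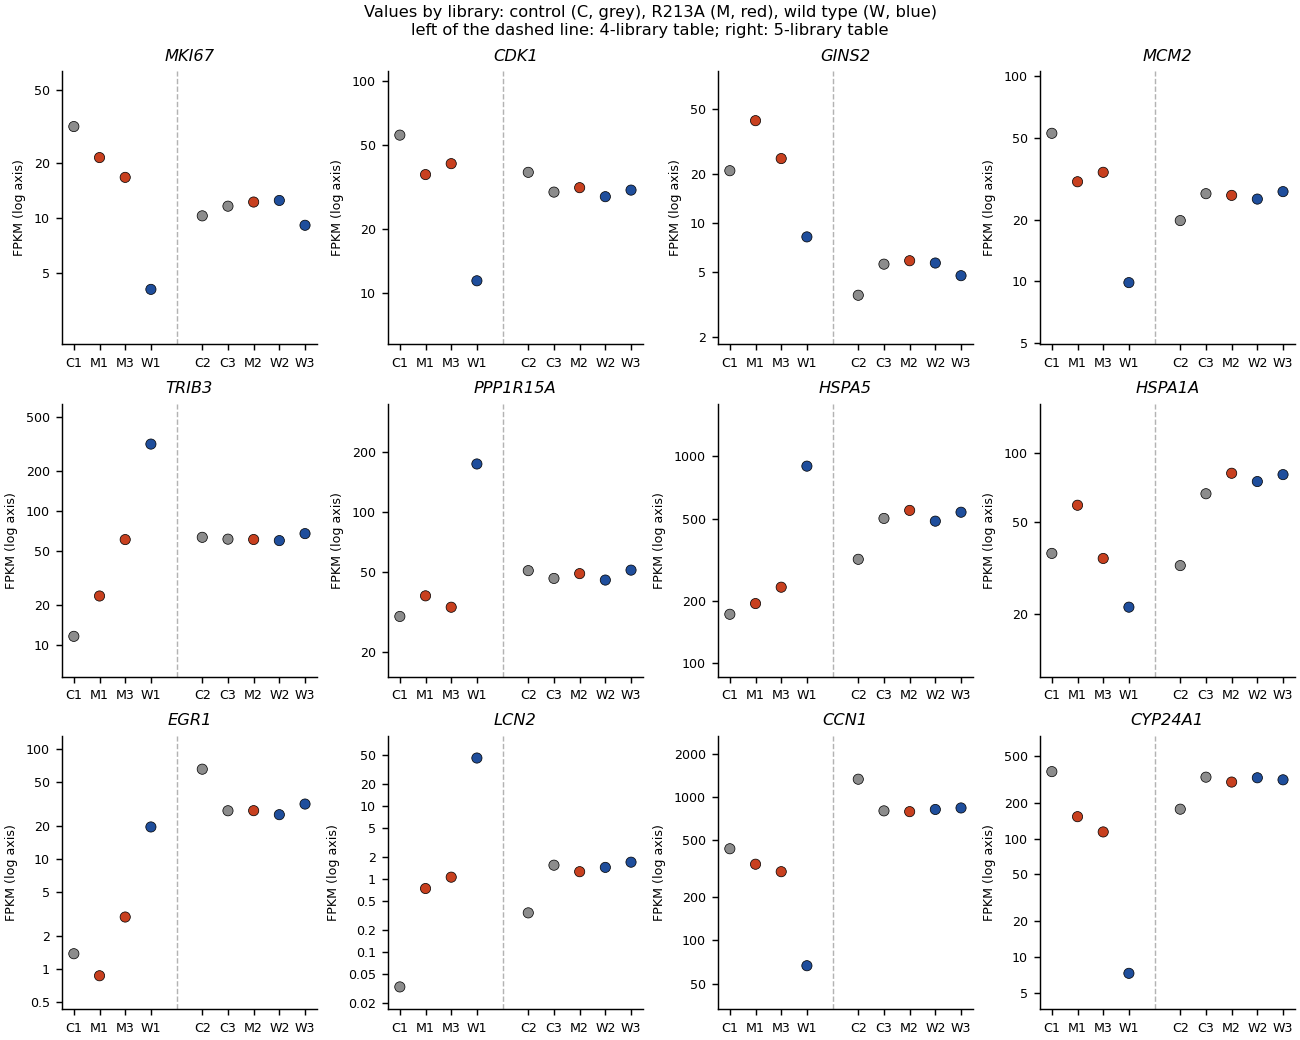
FPKM of 12 genes in each library on log axes, for control (C), R213A (M) and wild type (W), with the 4-library table left and the 5-library table right of the dashed line. Wild type 1 is the lowest of its table for MKI67, CDK1, GINS2, MCM2, HSPA1A, CCN1 and CYP24A1 and the highest for TRIB3, PPP1R15A, HSPA5, EGR1 and LCN2, while wild type 2 and 3 lie close to R213A 2.

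Targets of ATF4 stood higher in wild type 1. TRIB3, a pseudokinase induced by ATF4 (ENSG00000101255, chromosome 20, 362835 to 397559, plus strand), was at 316 FPKM in wild type 1, against 23.2 and 61.2 in R213A 1 and 3 and 11.6 in control 1. PPP1R15A, which restores translation after stress, was at 174 FPKM in wild type 1, against 38.1 and 33.4 in R213A 1 and 3 and 30.0 in control 1. CBS, an enzyme of cysteine synthesis, was at 8.99 FPKM in wild type 1, against 2.47 and 4.06 in R213A 1 and 3 and 2.55 in control 1. Wild type 1 was highest for all 3, and R213A 1 minus R213A 3 was -1.36 for TRIB3. TRIB3 was at 60.1 and 67.8 FPKM in wild type 2 and 3, 61.2 in R213A 2 and 63.6 and 61.6 in control 2 and 3. PPP1R15A was at 45.6 and 51.2 FPKM in wild type 2 and 3 and at 49.1 in R213A 2. CBS was at 6.15 and 6.69 FPKM in wild type 2 and 3 and at 6.08 in R213A 2. For TRIB3 and PPP1R15A the value of R213A 2 lay between those of wild type 2 and 3. Over both tables TRIB3 differed by 1.54 ± 0.68 (3.03 and 0.06 by table). PPP1R15A differed by 1.11 ± 0.47 (2.25 and -0.02) and CBS by 0.66 ± 0.29 (SE, limma adjusted p 0.869 for each of the 3).

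Of 30 measured genes of the ATF4 list, 23 lay above both R213A libraries in the 4-library table and 0 below (33.0% and 37.7% of all genes), and 13 were at least 2-fold higher (2.44% of all genes). By table the median was 0.71 (4-library) and 0.05 (5-library). The first was 1.37 against R213A 1 and 0.37 against R213A 3, and R213A 1 minus R213A 3 had a median of -0.81. By these medians the R213A libraries were further apart on the list than wild type 1 was from R213A 3. DDIT4, an inhibitor of mTORC1, shows this most clearly, at 135 FPKM in wild type 1, against 3.15 and 47.6 in R213A 1 and 3 and 1.48 in control 1. DDIT3, which encodes the stress factor CHOP, was at 138 FPKM in wild type 1, against 11.1 and 25.0 in R213A 1 and 3 and 6.08 in control 1. CHAC1, whose promoter is printed above, was at 52.8 FPKM in wild type 1, against 3.37 and 27.7 in R213A 1 and 3 and 1.40 in control 1. In each case control 1 was lowest, followed by R213A 1, R213A 3 and wild type 1. DDIT4 was at 66.8 and 71.4 FPKM in wild type 2 and 3 and at 59.2 in R213A 2. DDIT3 was at 27.01 and 31.8 FPKM in wild type 2 and 3 and at 29.9 in R213A 2. CHAC1 was at 19.3 and 21.3 FPKM in wild type 2 and 3 and at 19.0 in R213A 2. Wild type 2 and 3 were both above R213A 2 for DDIT4 and CHAC1 (0.22 and 0.09), by far less than wild type 1 in its table (3.26 and 2.27).

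Endoplasmic reticulum chaperones lay higher in wild type 1 against both R213A libraries by similar amounts. HSPA5, or BiP (ENSG00000044574, chromosome 9, 125234853 to 125241330, minus strand), was at 894 FPKM in wild type 1, against 194 and 233 in R213A 1 and 3 and 173 in control 1. DNAJB9, a cochaperone of HSPA5, was at 10.6 FPKM in wild type 1, against 1.82 and 2.17 in R213A 1 and 3 and 2.22 in control 1. HYOU1, another chaperone of this compartment, was at 59.99 FPKM in wild type 1, against 15.4 and 21.003 in R213A 1 and 3 and 25.2 in control 1. Wild type 1 was highest, and R213A 1 minus R213A 3 was -0.26 (HSPA5), -0.17 (DNAJB9) and -0.42 (HYOU1). HSPA5 was at 485 and 536 FPKM in wild type 2 and 3 and at 547 in R213A 2. DNAJB9 was at 20.5 and 20.05 FPKM in wild type 2 and 3 and at 19.9 in R213A 2. HYOU1 was at 34.1 and 37.6 FPKM in wild type 2 and 3 and at 36.4 in R213A 2. There R213A 2 was above both wild type libraries for HSPA5, below them for DNAJB9 and between them for HYOU1. Over both tables HSPA5 differed by 0.98 ± 0.46 (2.07 and -0.10 by table) and DNAJB9 by 0.99 ± 0.40 (1.96 and 0.03; SE, limma adjusted p 0.869 each). Of 28 measured members 25 lay above both R213A libraries without overlap and 0 below (33.0% and 37.7% of all genes). At least 2-fold higher were 8 members (2.44% of all genes). The median was 0.71 in the 4-library table (0.77 and 0.68 against R213A 1 and 3, and -0.13 for R213A 1 minus 3) and 0.00 in the 5-library table.

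Heat shock proteins of the cytosol and mitochondria stood lower in wild type 1, opposite to the chaperones of the endoplasmic reticulum. HSPE1, the mitochondrial cochaperonin, was at 22.6 FPKM in wild type 1, against 76.1 and 43.5 in R213A 1 and 3 and 39.6 in control 1. HSP90AA1, the inducible cytosolic HSP90, was at 311 FPKM in wild type 1, against 624 and 614 in R213A 1 and 3 and 812 in control 1. HSPA1B, an inducible HSP70 whose reads can be shared with its near-identical copy HSPA1A, was at 10.1 FPKM in wild type 1, against 20.8 and 16.3 in R213A 1 and 3 and 18.5 in control 1. Wild type 1 was the lowest library of its table for the 3 genes. HSPE1 was at 20.4 and 19.4 FPKM in wild type 2 and 3 and at 20.8 in R213A 2. HSP90AA1 was at 547 and 535 FPKM in wild type 2 and 3 and at 538 in R213A 2. HSPA1B was at 46.7 and 46.7 FPKM in wild type 2 and 3 and at 49.4 in R213A 2. R213A 2 was the highest of these libraries for HSPE1 and HSPA1B, with wild type minus R213A at -0.06 and -0.08. Of 20 measured members 17 lay below R213A without overlap and 2 above in the 4-library table (37.7% and 33.0% of all genes), and the medians were -0.54 and -0.01 by table.

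Lysosomal, autophagy and oxidative stress genes held members that stood high in wild type 1 as well. MAP1LC3B, which coats autophagosomes, was at 72.1 FPKM in wild type 1, against 17.3 and 22.1 in R213A 1 and 3 and 17.8 in control 1. GABARAPL1, of the same family, was at 8.99 FPKM in wild type 1, against 3.23 and 4.23 in R213A 1 and 3 and 2.86 in control 1. CTSL, a lysosomal cathepsin gene, was at 215 FPKM in wild type 1, against 65.3 and 77.5 in R213A 1 and 3 and 47.9 in control 1. All 3 were highest in wild type 1, and of 31 measured members of the lysosomal and autophagy list 16 lay above and 9 below R213A (33.0% and 37.7% of all genes), with medians of 0.17 and 0.05 by table. GABARAPL1 was at 29.4 and 30.6 FPKM in wild type 2 and 3 and at 26.9 in R213A 2, with wild type above R213A there too (pooled 0.62 ± 0.24, SE, limma adjusted p 0.869). HMOX1, the heme-degrading enzyme and a target of NRF2, was at 312 FPKM in wild type 1, against 51.6 and 65.1 in R213A 1 and 3 and 33.4 in control 1. SRXN1, which repairs oxidised peroxiredoxins, was at 3.97 FPKM in wild type 1, against 1.15 and 1.89 in R213A 1 and 3 and 3.14 in control 1. FTH1, the ferritin heavy chain gene with many processed copies in the genome, was at 597 FPKM in wild type 1, against 197 and 219 in R213A 1 and 3 and 128 in control 1. Wild type 1 was highest for these also, and 14 of 26 NRF2 and iron genes lay above and 6 below R213A, against the same shares of all genes (medians 0.31 and 0.03). HMOX1 was at 344 and 344 FPKM in wild type 2 and 3, 347 in R213A 2 and 919.7 and 305 in control 2 and 3. SRXN1 was at 6.88 and 9.58 FPKM in wild type 2 and 3 and at 6.66 in R213A 2. Both wild type libraries exceeded R213A 2 for SRXN1 and were just below it for HMOX1 (-0.01), while control 2 was highest for HMOX1.

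**Figure D4:**
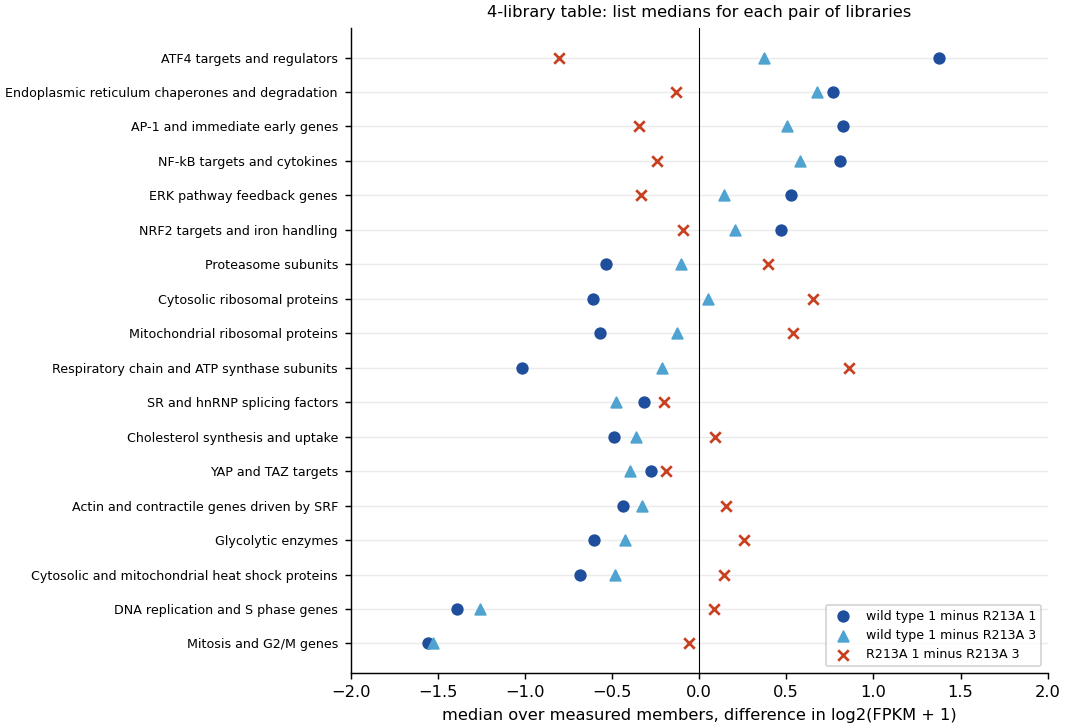
Median difference of 18 gene lists in the 4-library table for wild type 1 minus R213A 1 (circles), wild type 1 minus R213A 3 (triangles) and R213A 1 minus R213A 3 (crosses), in log2(FPKM + 1). For the cell cycle, heat shock and endoplasmic reticulum lists both wild type medians lie on the same side and away from the crosses. For the respiratory chain, ribosomal, proteasome, ATF4 and ERK feedback lists R213A 1 and 3 lie further apart than wild type 1 and R213A 3.

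Immediate early genes, the first genes transcribed after a growth signal, stood higher in wild type 1. EGR1 was at 19.4 FPKM in wild type 1, against 0.869 and 2.96 in R213A 1 and 3 and 1.38 in control 1. JUNB, an AP-1 subunit, was at 19.4 FPKM in wild type 1, against 3.69 and 5.95 in R213A 1 and 3 and 1.93 in control 1. IER2 was at 93.8 FPKM in wild type 1, against 43.2 and 38.3 in R213A 1 and 3 and 14.9 in control 1. Wild type 1 exceeded the other libraries of its table for each. EGR1 was at 25.1 and 31.4 FPKM in wild type 2 and 3, 27.3 in R213A 2 and 64.9 and 27.3 in control 2 and 3. JUNB was at 18.8 and 19.5 FPKM in wild type 2 and 3 and at 18.7 in R213A 2. IER2 was at 27.6 and 29.3 FPKM in wild type 2 and 3 and at 26.5 in R213A 2. Wild type stood above R213A 2 by 0.04, 0.03 and 0.10, with R213A 2 between wild type 2 and 3 for EGR1 and control 2 the highest. Over both tables EGR1 differed by 1.47 ± 0.63 and IER2 by 0.64 ± 0.26 (SE, limma adjusted p 0.869 each). Of 19 members measured 15 lay above and 0 below R213A in the 4-library table (33.0% and 37.7% of all genes). The medians by table were 0.83 and 0.01.

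Feedback genes of the ERK pathway were mixed. SPRY4, an inhibitor of receptor signalling, was at 24.3 FPKM in wild type 1, against 2.36 and 6.23 in R213A 1 and 3 and 2.67 in control 1. DUSP6, the phosphatase of ERK, was at 26.6 FPKM in wild type 1, against 4.81 and 10.1 in R213A 1 and 3 and 7.83 in control 1. Both were highest in wild type 1, whereas the ERK-induced cyclin CCND1 was lowest there. SPRY4 was at 16.6 and 16.1 FPKM in wild type 2 and 3 and at 17.1 in R213A 2. DUSP6 was at 21.8 and 23.3 FPKM in wild type 2 and 3 and at 21.9 in R213A 2. The list had 12 of 19 members above and 4 below R213A (33.0% and 37.7% of all genes). By table the medians were 0.34 and -0.01. The first was 0.53 against R213A 1 but 0.14 against R213A 3. R213A 1 minus R213A 3 had a median of -0.33, so these 2 lay further apart than wild type 1 and R213A 3. Of 14 genes of the EGF receptor family and its ligands 4 were measured. EGFR was at 9.96 FPKM in wild type 1, against 7.97 and 13.4 in R213A 1 and 3 and 22.5 in control 1, so wild type 1 lay between the R213A libraries. ERRFI1, an inhibitor of that receptor, was at 19.4 FPKM in wild type 1, against 2.57 and 6.44 in R213A 1 and 3 and 5.22 in control 1, with wild type 1 highest. Insulin feedback genes driven by FOXO had 6 of 11 members above and 0 below R213A (33.0% and 37.7% of all genes). TXNIP, which binds thioredoxin, was at 12.2 FPKM in wild type 1, against 1.20 and 4.42 in R213A 1 and 3 and 3.63 in control 1, again with R213A 1 and 3 far apart (-1.30).

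Targets of NF-kB stood higher in wild type 1, led by a few secreted factors. LCN2, a siderophore-binding protein gene (ENSG00000148346, chromosome 9, 128149071 to 128153455, plus strand), was at 44.8 FPKM in wild type 1, against 0.738 and 1.05 in R213A 1 and 3 and 0.0334 in control 1. This is the widest difference of all genes tested in the 4-library table (4.60). CXCL1, a neutrophil chemokine gene, was at 20.7 FPKM in wild type 1, against 0.796 and 2.39 in R213A 1 and 3 and 0.535 in control 1. CXCL3, of the same family, was at 3.29 FPKM in wild type 1, against 0.0664 and 0.245 in R213A 1 and 3 and 0.0481 in control 1. Wild type 1 exceeded R213A by more than R213A 1 and 3 differed from each other for the 3 genes. LCN2 was at 1.43 and 1.69 FPKM in wild type 2 and 3, 1.25 in R213A 2 and 0.343 and 1.54 in control 2 and 3. CXCL1 was at 6.30 and 6.37 FPKM in wild type 2 and 3 and at 6.89 in R213A 2. CXCL3 was at 1.15 and 1.89 FPKM in wild type 2 and 3 and at 1.60 in R213A 2. Wild type was thus above R213A 2 for LCN2, below it for CXCL1 and on both sides for CXCL3. Over both tables LCN2 differed by 2.39 ± 0.86 (SE, 95% interval 0.34 to 4.44, limma adjusted p 0.869). Of 21 members measured 18 lay above and 2 below R213A in the 4-library table (33.0% and 37.7% of all genes). The differences there ran from -2.74 to 4.60. At least 2-fold, 7 members were higher and 1 lower (2.44% and 4.07% of all genes). The medians were 0.70 and -0.02 by table. Interferon-induced and antigen presentation genes had 8 above and 10 below of 27, near the shares of all genes (33.0% and 37.7%).

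Receptors for collagen lay at or above R213A in the 4-library table. ITGB1, the chain common to all collagen integrins, was at 62.2 FPKM in wild type 1, against 24.5 and 64.0 in R213A 1 and 3 and 100.2 in control 1. ITGA2, its partner for collagen, was at 1.29 FPKM in wild type 1, against 0.410 and 0.5499 in R213A 1 and 3 and 1.37 in control 1. DDR1, a discoidin receptor kinase, was at 4.05 FPKM in wild type 1, against 3.9998 and 3.76 in R213A 1 and 3 and 2.96 in control 1. ITGB1 in wild type 1 was just below R213A 3 and far above R213A 1, ITGA2 was above both, and DDR1 differed by 0.05. ITGB1 was at 223 and 211 FPKM in wild type 2 and 3, 215 in R213A 2 and 295 and 225 in control 2 and 3. ITGA2 was at 10.1 and 8.70 FPKM in wild type 2 and 3, 11.8 in R213A 2 and 8.48 and 9.59 in control 2 and 3. DDR1 was at 4.26 and 3.61 FPKM in wild type 2 and 3, 4.16 in R213A 2 and 5.38 and 4.16 in control 2 and 3. Wild type 2 and 3 were below R213A 2 for ITGA2 (-0.30) and on both sides of it for the other two, and control 2 was highest for ITGB1 and DDR1. MRC2, which takes up collagen fragments, was at 13.3 FPKM in wild type 1 and at 12.5 and 10.7 in R213A 1 and 3. These 4 are the receptors measured of 10 listed, DDR2 among those under the level filter. Over both tables the difference was 0.32 ± 0.38 for ITGB1, 0.16 ± 0.22 for ITGA2 and -0.01 ± 0.13 for DDR1 (SE, limma adjusted p 0.873, 0.882 and 0.990). The 95% interval of DDR1, -0.32 to 0.30, is the narrowest of the 3. Of 12 integrin chains for laminin, fibronectin and vitronectin 6 were measured, with medians of 0.15 and -0.11 by table.

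Targets of YAP and TAZ, which respond to cell spreading and matrix stiffness, stood lower in wild type 1. CCN1, a secreted matrix protein gene, was at 66.6 FPKM in wild type 1, against 339 and 301 in R213A 1 and 3 and 434 in control 1. IGFBP3, an IGF-binding protein gene, was at 4.03 FPKM in wild type 1, against 16.5 and 12.3 in R213A 1 and 3 and 30.6 in control 1. ANKRD1, whose promoter is printed above, was at 15.1 FPKM in wild type 1, against 41.8 and 42.1 in R213A 1 and 3 and 67.8 in control 1. For the 3 genes wild type 1 was lowest, control 1 was highest, and R213A 1 and 3 were closer to each other than to either. CCN1 was at 816 and 836 FPKM in wild type 2 and 3, 788 in R213A 2 and 1325 and 798 in control 2 and 3. IGFBP3 was at 1.69 and 1.46 FPKM in wild type 2 and 3 and at 1.86 in R213A 2. ANKRD1 was at 70.2 and 75.0 FPKM in wild type 2 and 3 and at 69.5 in R213A 2. Wild type was thus above R213A 2 for CCN1 and ANKRD1 and below it for IGFBP3. Over both tables CCN1 differed by -1.09 ± 0.48 (-2.25 and 0.07 by table) and IGFBP3 by -0.88 ± 0.32 (-1.60 and -0.15; SE, limma adjusted p 0.869 each). Of 19 measured targets 11 lay below and 2 above R213A without overlap in the 4-library table (37.7% and 33.0% of all genes). At least 2-fold there, 5 were lower and 1 higher (4.07% and 2.44% of all genes). The medians were -0.39 and 0.01 by table.

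Actin and contractile genes driven by SRF also stood lower there. TPM1, a tropomyosin gene, was at 3.82 FPKM in wild type 1, against 18.9 and 11.7 in R213A 1 and 3 and 23.5 in control 1. CNN2, a calponin gene, was at 35.5 FPKM in wild type 1, against 70.3 and 57.8 in R213A 1 and 3 and 59.9 in control 1. VCL, or vinculin, of focal adhesions, was at 8.62 FPKM in wild type 1, against 14.02 and 18.7 in R213A 1 and 3 and 37.5 in control 1. These 3 were lowest in wild type 1. In the 5-library table their differences were 0.01 (TPM1), 0.01 (CNN2) and 0.02 (VCL). The SRF list had 14 of 19 members below and 4 above R213A (37.7% and 33.0% of all genes), with medians of -0.51 and 0.01 by table. The focal adhesion list had 10 below and 6 above of 21, near those shares (medians -0.13 and -0.03, the first of which turned positive against R213A 1 alone, at 0.01).

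Genes by which the cells build or modify matrix were divided as well. TGM2, a crosslinking transglutaminase, was at 26.6 FPKM in wild type 1, against 121 and 110.5 in R213A 1 and 3 and 145 in control 1. LOXL2, a lysyl oxidase that crosslinks collagen, was at 25.8 FPKM in wild type 1, against 65.1 and 57.4 in R213A 1 and 3 and 71.5 in control 1. P4HA2, a collagen prolyl hydroxylase, was at 4.69 FPKM in wild type 1, against 1.17 and 1.04 in R213A 1 and 3 and 0.972 in control 1. TGM2 and LOXL2 were lowest and P4HA2 highest in wild type 1. TIMP1, an inhibitor of matrix metalloproteases, was at 892 FPKM in wild type 1, against 390.5 and 225 in R213A 1 and 3 and 127 in control 1. This gene too was highest in wild type 1. In the 5-library table the differences were 0.03 (TGM2), -0.02 (LOXL2), -0.11 (P4HA2) and -0.07 (TIMP1). HSPG2, or perlecan, a basement membrane proteoglycan gene, was at 1.34 FPKM in wild type 1 and at 1.90 and 3.03 in R213A 1 and 3. It was at 10.9 and 7.74 FPKM in wild type 2 and 3 and at 11.4 in R213A 2. Wild type was lower in both tables (pooled -0.41 ± 0.20, SE, limma adjusted p 0.869). In the 5-library table wild type 2 and 3 differed by 0.45, against -0.28 for wild type minus R213A 2. Of 30 collagen and basement membrane genes 11 were measured, COL1A1 and COL1A2 not among them, and 4 lay above and 3 below R213A in the 4-library table, near the shares of all genes (33.0% and 37.7%). There were 0 above and 8 below in the 5-library one (35.2% and 29.9% of all genes). Of 35 matrix proteases and inhibitors 15 were measured. SLPI, a protease inhibitor gene, was at 3.04 FPKM in wild type 1 and at 2.84 and 2.19 in R213A 1 and 3. It was at 2.15 and 1.16 FPKM in wild type 2 and 3 and at 0.576 in R213A 2, so wild type was the higher in both tables at a low level. Of 23 M14 carboxypeptidases, the family of CPXM2, 4 were measured, among them CPD at 4.22 FPKM in wild type 1 and at 3.62 and 5.68 in R213A 1 and 3 and CPE at 2.34 FPKM in wild type 1 and at 1.67 and 2.19 in R213A 1 and 3, with medians of 0.05 and -0.05.

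Markers of epithelial and mesenchymal state had no common direction. CLDN1, a tight junction claudin, was at 46.6 FPKM in wild type 1, against 9.46 and 22.0 in R213A 1 and 3 and 19.3 in control 1. JUP, or plakoglobin, was at 4.52 FPKM in wild type 1, against 9.63 and 7.27 in R213A 1 and 3 and 7.35 in control 1. KRT8 was at 132 FPKM in wild type 1, against 300.3 and 187 in R213A 1 and 3 and 138 in control 1. CLDN1 was highest in wild type 1, whereas JUP and KRT8 were lowest there. VIM, the mesenchymal filament gene, was at 212.99 FPKM in wild type 1, against 131 and 177 in R213A 1 and 3 and 81.0 in control 1. AXL, a receptor kinase linked to mesenchymal state, was at 71.3 FPKM in wild type 1, against 126 and 122 in R213A 1 and 3 and 130.5 in control 1. VIM was thus highest and AXL lowest in wild type 1. Of 17 measured epithelial genes 5 lay above and 6 below R213A, and of 6 mesenchymal ones 2 and 3 (33.0% and 37.7% of all genes). The 5-library differences were 0.01 (CLDN1), 0.01 (JUP), 0.05 (KRT8), -0.05 (VIM) and -0.07 (AXL). In the TGF-beta list 3 of 12 lay above and 4 below R213A, near the shares of all genes (33.0% and 37.7%). TGFBR3, a coreceptor of that pathway, was at 0.915 FPKM in wild type 1 and at 3.31 and 2.54 in R213A 1 and 3 and BAMBI, a decoy receptor, at 4.29 FPKM in wild type 1 and at 2.23 and 2.16 in R213A 1 and 3.

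**Figure D5:**
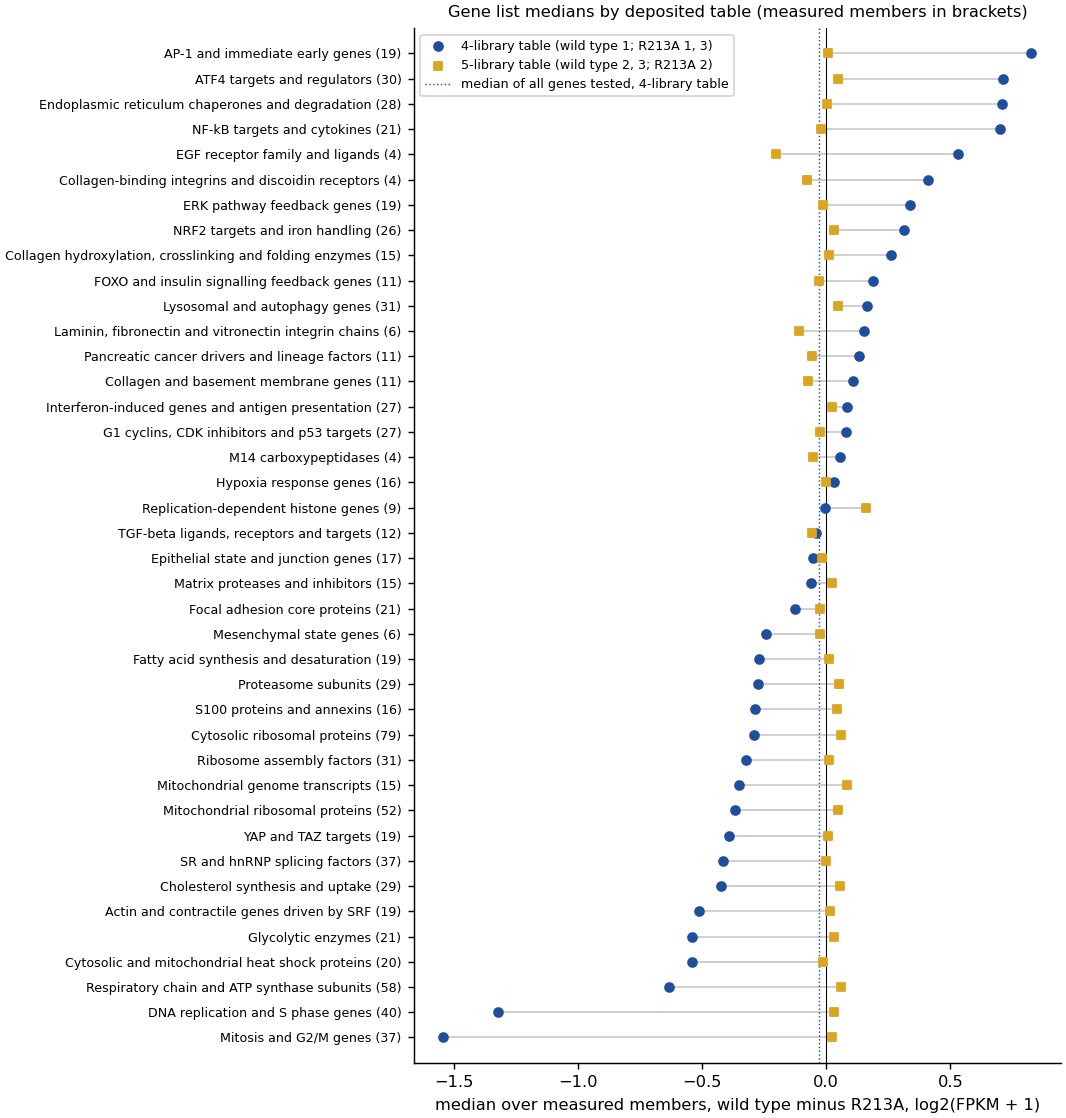
Median wild type minus R213A difference in log2(FPKM + 1) over the measured members of 40 gene lists with at least 4 such members, for the 4-library table (circles) and the 5-library table (squares). The 4-library medians run from -1.54 for G2/M to 0.83 for immediate early genes, and the 5-library medians stay between -0.20 and 0.16.

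Enzymes of glycolysis stood lower in wild type 1. LDHA, lactate dehydrogenase, was at 86.9 FPKM in wild type 1, against 254 and 207 in R213A 1 and 3 and 227 in control 1. PGAM1, phosphoglycerate mutase, was at 108 FPKM in wild type 1, against 348 and 243 in R213A 1 and 3 and 301 in control 1. PKM, pyruvate kinase, was at 144 FPKM in wild type 1, against 386 and 260.0 in R213A 1 and 3 and 203 in control 1. For LDHA and PGAM1 control 1 lay with the R213A libraries, and for PKM it lay between wild type 1 and R213A. LDHA was at 510.0 and 504 FPKM in wild type 2 and 3 and at 481 in R213A 2. PGAM1 was at 254 and 260.1 FPKM in wild type 2 and 3 and at 250.03 in R213A 2. Wild type 2 and 3 were here above R213A 2 for both. Of 21 enzymes 17 lay below and 1 above R213A in the 4-library table (37.7% and 33.0% of all genes), with medians of -0.54 and 0.03. Hypoxia response genes, some of which are shared targets, had 7 above and 6 below of 16 (33.0% and 37.7% of all genes). ADM, or adrenomedullin, was at 6.09 FPKM in wild type 1, against 87.2 and 24.6 in R213A 1 and 3 and 88.3 in control 1. NDRG1 was at 30.2 FPKM in wild type 1, against 12.4 and 8.36 in R213A 1 and 3 and 11.5 in control 1. ADM was lowest and NDRG1 highest in wild type 1.

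Lipid synthesis genes stood lower in wild type 1 too. ACAT2, which supplies acetoacetyl-CoA for cholesterol, was at 7.65 FPKM in wild type 1, against 33.3 and 21.5 in R213A 1 and 3 and 36.3 in control 1. FASN, fatty acid synthase, was at 11.3 FPKM in wild type 1, against 33.1 and 28.6 in R213A 1 and 3 and 38.5 in control 1. SCD5, a desaturase gene, was at 1.37 FPKM in wild type 1, against 4.31 and 3.64 in R213A 1 and 3 and 8.10 in control 1. Wild type 1 was lowest and control 1 highest for each. ACAT2 was at 60.2 and 61.2 FPKM in wild type 2 and 3 and at 58.9 in R213A 2. FASN was at 201.5 and 189 FPKM in wild type 2 and 3 and at 198 in R213A 2. SCD5 was at 5.89 and 5.74 FPKM in wild type 2 and 3 and at 6.28 in R213A 2. R213A 2 lay between wild type 2 and 3 for FASN, below them for ACAT2 and above them for SCD5. Over both tables SCD5 differed by -0.58 ± 0.23 (SE, limma adjusted p 0.869). Of 29 cholesterol genes 20 lay below and 4 above R213A in the 4-library table (37.7% and 33.0% of all genes). There were 4 below and 20 above in the 5-library table (29.9% and 35.2%), and the medians were -0.42 and 0.06. In the fatty acid list 13 of 19 lay below and 3 above in the 4-library table (37.7% and 33.0% of all genes; medians -0.27 and 0.01 by table).

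Respiratory chain and ribosomal protein genes stood below R213A mainly through R213A 1. ATP5MC1, a subunit of ATP synthase, was at 38.5 FPKM in wild type 1, against 131 and 55.9 in R213A 1 and 3 and 45.4 in control 1. COX7B, of cytochrome c oxidase, was at 12.2 FPKM in wild type 1, against 31.1 and 17.9 in R213A 1 and 3 and 17.6 in control 1. RPL7A, of the large ribosomal subunit, was at 967 FPKM in wild type 1, against 2129 and 1352 in R213A 1 and 3 and 891 in control 1. R213A 1 was the highest library for the 3 genes, and R213A 3 lay nearer to wild type 1 and control 1. Of 58 respiratory genes 50 lay below both R213A libraries in the 4-library table and 0 above (37.7% and 33.0% of all genes). Their median was -1.02 against R213A 1 but -0.21 against R213A 3, and it was 0.86 for R213A 1 minus R213A 3. For the 79 cytosolic ribosomal proteins the median was -0.29, or -0.61 against R213A 1 and 0.05 against R213A 3. It thus changed sign without R213A 1. Of these members 47 overlapped, as did 3287 of all 11193 genes. Medians against R213A 1 and 3 were -0.57 and -0.12 for mitochondrial ribosomal proteins and -0.53 and -0.10 for proteasome subunits, whose 4-library median of -0.27 turned to 0.04 under quantile normalization. Gene length moved with this gap. The 3731 shortest genes had a median R213A 1 minus R213A 3 of 0.26 and the 3731 longest of -0.16. With length corrected, alone or with GC content, the 4-library medians of these lists kept their sign. How much of the gap between R213A 1 and 3 goes with length was not tested. In the 5-library table the medians were 0.06 for the respiratory and 0.06 for the ribosomal list. The splicing factors did not share the gap, with medians of -0.32 and -0.48 against R213A 1 and 3. Of 37 members 29 lay below both (37.7% of all genes). SRSF2, of this list, was at 29.04 FPKM in wild type 1, against 82.9 and 66.8 in R213A 1 and 3 and 65.7 in control 1. Ribosome assembly factors had medians of -0.36 and -0.29.

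Transcripts of the mitochondrial genome had no common direction in the 4-library table. MT-RNR2, the large ribosomal RNA, was at 4008 FPKM in wild type 1, against 603 and 1750.3 in R213A 1 and 3 and 507 in control 1. MT-RNR1, the small one, was at 1095 FPKM in wild type 1, against 354 and 623 in R213A 1 and 3 and 186 in control 1. MT-ATP6, a messenger RNA for ATP synthase, was at 1128 FPKM in wild type 1, against 2044 and 1836 in R213A 1 and 3 and 2528 in control 1. The ribosomal RNAs were highest and MT-ATP6 lowest in wild type 1. MT-RNR2 was at 1967 and 1683 FPKM in wild type 2 and 3, 1842 in R213A 2 and 3991 and 1755 in control 2 and 3. MT-ATP6 was at 1593 and 1523 FPKM in wild type 2 and 3, 1471 in R213A 2 and 979 and 1827 in control 2 and 3. Control 2 had the highest MT-RNR2 and the lowest MT-ATP6 of its table, while R213A 2 lay between wild type 2 and 3 for MT-RNR2. Of 15 such transcripts 10 lay below and 3 above R213A in the 4-library table (37.7% and 33.0% of all genes). By sign alone 11 were lower and 4 higher there, so the ribosomal RNAs were not the only ones higher. The medians were -0.35 and 0.08 by table. Reads from nuclear copies of mitochondrial sequence cannot be told apart from these transcripts.

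Among genes averaging 10 FPKM or more, a few stood furthest apart in the 4-library table. CYP24A1, the enzyme that inactivates vitamin D, was at 7.27 FPKM in wild type 1, against 153 and 114 in R213A 1 and 3 and 368 in control 1, the lowest difference of all genes tested (-4.01). UPP1, uridine phosphorylase, was at 657 FPKM in wild type 1, against 55.3 and 110.5 in R213A 1 and 3 and 16.2 in control 1. OSCAR, a receptor of the immunoglobulin family that binds collagen, was at 159 FPKM in wild type 1, against 11.1 and 26.7 in R213A 1 and 3 and 3.51 in control 1. CYP24A1 was lowest, and UPP1 and OSCAR were highest, in wild type 1, with R213A 1 and 3 between it and control 1. CYP24A1 was at 327 and 314 FPKM in wild type 2 and 3, 300.5 in R213A 2 and 177 and 331 in control 2 and 3. UPP1 was at 53.6 and 61.2 FPKM in wild type 2 and 3 and at 58.5 in R213A 2. OSCAR was at 13.1 and 14.1 FPKM in wild type 2 and 3 and at 13.9 in R213A 2. Wild type was above R213A 2 for CYP24A1, and R213A 2 lay between wild type 2 and 3 for UPP1 and OSCAR. S100A4, a calcium-binding protein gene, was at 1.87 FPKM in wild type 1, against 35.0 and 6.84 in R213A 1 and 3 and 7.70 in control 1. NRGN, or neurogranin, was at 7.51 FPKM in wild type 1, against 64.2 and 30.1 in R213A 1 and 3 and 23.1 in control 1. R213A 1 was the highest library of this table for both, and wild type 1 was lowest. In the 5-library table the differences were 0.18 (S100A4) and 0.01 (NRGN).

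The genes with the same direction in both tables and the smallest unadjusted p were mostly of low level. CLDN23, a tight junction claudin, was at 3.34 FPKM in wild type 1 and at 0.544 and 1.13 in R213A 1 and 3. It was at 1.87 and 1.66 FPKM in wild type 2 and 3 and at 1.002 in R213A 2. Wild type was higher in both tables, and control 1 to 3 were at 1.84, 0.983 and 1.93 FPKM. GOLT1A, a Golgi transport protein gene, was at 12.98 FPKM in wild type 1 and at 6.62 and 4.21 in R213A 1 and 3. It was at 6.29 and 4.62 FPKM in wild type 2 and 3 and at 3.42 in R213A 2. Controls were at 2.72, 17.05 and 4.57 FPKM and so ran from below R213A to above wild type. BET1, a SNARE of transport from the endoplasmic reticulum to the Golgi, was at 3.61 FPKM in wild type 1 and at 1.503 and 2.08 in R213A 1 and 3. It was at 4.55 and 4.74 FPKM in wild type 2 and 3 and at 3.48 in R213A 2. Over both tables CLDN23 differed by 0.86 ± 0.23, GOLT1A by 0.84 ± 0.23 and BET1 by 0.53 ± 0.16 (SE, limma adjusted p 0.869 each). The other genes named by this rule on the higher side had pooled differences of 0.95 (SLC22A18), 0.58 (SERPINI1), 0.57 (FAM174A), 0.51 (TMEM198), 0.51 (TRAPPC6A), 0.44 (PCSK4) and 0.41 (SHLD1). Of all 11193 genes, 1158 were higher (10.3%) and 1129 lower (10.1%) without overlap in both tables. The single-table shares were 33.0% and 37.7% in the 4-library table and 35.2% and 29.9% in the 5-library table. A shared order in both tables therefore does not set these genes apart.

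On the lower side AC004556.1, annotated outside the main chromosomes, had the smallest p of these. It was at 5.45 FPKM in wild type 1 and at 17.5 and 7.20 in R213A 1 and 3. The other table had it at 1.08 and 2.58 FPKM in wild type 2 and 3 and at 11.9 in R213A 2. R213A was higher in both tables, but R213A 1 and 3 lay further apart (1.18) than wild type 1 and R213A 3, and the 5-library difference (-2.24), the lowest of all genes tested there, rests on 15 and 36 reads against 154. The pooled difference was -1.59 ± 0.44 (SE, limma adjusted p 0.869), and -0.93 without R213A 2. ARHGAP33, a GTPase-activating protein gene, was at 0.580 FPKM in wild type 1 and at 3.31 and 2.56 in R213A 1 and 3. It was at 1.61 and 1.23 FPKM in wild type 2 and 3 and at 2.001 in R213A 2. EEPD1, of DNA repair, was at 1.66 FPKM in wild type 1 and at 4.46 and 3.54 in R213A 1 and 3. This gene had the same order in the other table, at 1.45 and 1.64 FPKM in wild type 2 and 3 and at 2.05 in R213A 2. POLD3, a subunit of DNA polymerase delta, was at 3.53 FPKM in wild type 1 and at 6.24 and 7.10 in R213A 1 and 3. It was at 4.59 and 3.75 FPKM in wild type 2 and 3 and at 5.11 in R213A 2. LRR1, a cofactor of replisome unloading, was at 5.37 FPKM in wild type 1 and at 18.6 and 13.3 in R213A 1 and 3. For these last 4 genes wild type 1 lay below R213A 1 and 3, and wild type 2 and 3 below R213A 2, with LRR1 at 4.32 and 3.59 FPKM in wild type 2 and 3 and at 4.95 in R213A 2. Over both tables ARHGAP33 differed by -0.81 ± 0.24, EEPD1 by -0.58 ± 0.19, POLD3 by -0.50 ± 0.17 and LRR1 by -0.83 ± 0.28 (SE, limma adjusted p 0.869 each). CENPF and BUB1, described above, are among these genes. The remaining ones had pooled differences of -0.60 (GPR89B, which has the near-identical copy GPR89A), -0.53 (AUNIP, a repair factor) and -0.40 (EBI3, a cytokine subunit).

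Within the 5-library table the widest gaps among genes of at least 10 FPKM on average over the 9 libraries were small. MRPL23, a mitochondrial ribosomal protein gene, was at 7.65 and 5.13 FPKM in wild type 2 and 3 and at 3.29 in R213A 2. COMTD1, a methyltransferase gene, was at 5.47 and 6.10 FPKM in wild type 2 and 3 and at 3.80 in R213A 2. SDF2L1, of protein folding in the endoplasmic reticulum, was at 9.22 and 12.9 FPKM in wild type 2 and 3 and at 7.60 in R213A 2. Wild type 2 and 3 were above R213A 2 for these. PSME2, of the proteasome activator, was at 15.1 and 14.9 FPKM in wild type 2 and 3 and at 10.6 in R213A 2. SPC24, of the kinetochore, was at 3.74 and 4.66 FPKM in wild type 2 and 3 and at 2.90 in R213A 2. MT-ATP8, of the mitochondrial genome, was at 53.1 and 58.1 FPKM in wild type 2 and 3 and at 36.2 in R213A 2. For MRPL23, COMTD1, PSME2, SPC24 and MT-ATP8 the 4-library table gave the opposite direction (-0.88, -0.74, -0.52, -2.27 and -0.35). AHNAK, a giant scaffold protein gene, was at 65.7 and 41.0 FPKM in wild type 2 and 3 and at 71.0 in R213A 2. DYNC1H1, the dynein heavy chain gene, was at 26.9 and 18.3 FPKM in wild type 2 and 3 and at 30.0 in R213A 2. HUWE1, a ubiquitin ligase gene, was at 24.5 and 16.4 FPKM in wild type 2 and 3 and at 26.7 in R213A 2. PRKDC, the DNA-dependent protein kinase, followed the same order, at 43.9 and 31.9 FPKM in wild type 2 and 3 and at 48.5 in R213A 2. These 4 long genes were low in wild type 3, and wild type 2 lay near R213A 2. In the 4-library table DYNC1H1 had the opposite direction (0.39), and AHNAK, HUWE1 and PRKDC differed by -0.21, -0.01 and -0.50. EEFSEC, of selenocysteine insertion, was at 1.26 and 1.01 FPKM in wild type 2 and 3 and at 1.82 in R213A 2. TMEM54 was at 3.69 and 5.19 FPKM in wild type 2 and 3 and at 6.50 in R213A 2, with wild type below R213A 2 in both libraries. At least 2-fold, 11 genes were higher (0.0983%) and 20 lower (0.179%) in this table. By length, the 3731 shortest genes had a median difference of 0.03 and the 3731 longest of -0.02, and wild type 2 minus 3 had medians of -0.05 and 0.04.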

How the data were processed

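RNA of PaTu 8988t cells on 3 kinds of matrix was sequenced as stranded poly(A) libraries, per the labels' protocols, with 3 libraries a group. Bcl2fastq and the build hg38 are named in the submitters' processing notes. Which aligner, counter and annotation were used is not given in the sources used here. The authors deposited FPKM in 2 tables, per the file headers, and the sources do not say what divides the libraries between them. FPKM times gene length gave whole reads for 100% of values (within 0.01 reads), so the depth of each library was recovered. The scaling used in the FPKM values differed from those totals by a factor of 0.850 (R213A 1) to 1.09.

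Genes were kept at a mean of at least 1 FPKM over 9 libraries and tested as log2(FPKM + 1) in limma 3.58.1 (R 4.3.3), with the table as a term, a mean-variance trend and Benjamini-Hochberg adjustment over all 11193 genes at 0.05. The 6 libraries entered the fit, which was tested on simulated data. Alternatives changed the pseudocount (0.1, 0.5), the level filter (none, 5 FPKM), the scaling, the terms, the libraries, the length correction and the unit (limma-voom on recovered reads). A correction for length with GC content and the test between tables were added after the data were seen.

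The comparison and the 45 gene lists were chosen with earlier results of these data known. Named genes are the 3 members of smallest p per list, 12 fixed genes, the 10 per direction with the lowest p among genes whose sign the tables share, and the 6 widest differences per direction in each table at 10 FPKM or more without overlap; the text names part of them. ANKRD1, CCNB2, CDKN1A, CHAC1, MCM6 and PLK1, the promoters shown, and CDK1, HSPA1A and MCM2 in a plot were chosen after their values were seen. Promoters came from RefSeq (GRCh38.p14) and the CPXM2 codon from the GENCODE v29 annotation on hg38.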

Additional observations from a re-analysis of the deposited data

How the results depend on the processing

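limma called 0 genes in the main fit and under all other settings except 3. It called 326 in the 4-library table alone and 1 in the 5-library table alone (MIR6746, adjusted p 0.0493), fits with 1 residual degree of freedom. Leaving out each library in turn gave 0 to 1, the 1 being LCN2 without R213A 2 (adjusted p 0.0195). At an unadjusted p under 0.05 the count of 265 became 686 with no level filter, 116 at a mean of 5 FPKM, 56 without the table term, 117 with 9 libraries and additive terms, 767 with 9 libraries and 1 mean per group and table, 1162 in the 4-library table alone and 415 in the 5-library table alone. Without 1 library it ran from 59 (wild type 1) to 2008 (R213A 2), with 129 without R213A 3. Where a group keeps 1 library in a table, that library is assumed to vary like the others. The cause of these changes was not tested.

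Libraries with the same number were not treated as pairs, and the values cannot tell whether they are. Deviations from the group means correlated at 0.77 and 0.84 for numbers 1 and 2, whose libraries share a table. The value was -0.70 for number 3, whose libraries do not. Unlike numbers within a table gave 0.74 (wild type 1, R213A 3) and 0.81 (wild type 3, R213A 2). With the replicate block in place of the table term, 970 genes had an unadjusted p under 0.05. With the replicate block beside that term there were 269. limma called 0 genes in both. TRAPPC6A turned to -0.13 without the table term and with the replicate block in its place. Of 467 values of the 20 genes sharing a direction in both tables, 2 reversed. These genes were picked for a shared sign and a low p in the same data. The count therefore cannot show how robust they are. Of 40 list medians, 14 changed sign in the 4-library table under some setting, among them the ribosomal, proteasome, focal adhesion, G1, hypoxia, interferon, TGF-beta, epithelial, matrix protease and M14 lists. No sign change was seen for the mitotic, S phase, ATF4, endoplasmic reticulum, heat shock, immediate early, NF-kB, YAP, SRF, cholesterol, glycolysis and respiratory lists. This held with length and GC correction too. Settings of the terms, trend, library weights and 9 libraries cannot change a 4-library median, however. All of these 4-library values rest on wild type 1 and cannot be formed without it. Of the 40 medians over both tables, 35 changed sign under some setting, 25 of them when wild type 1 was left out.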
